A study of Mus musculus with 14 samples.

Results

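The Robo receptors and their Slit ligands make up a family of 7 mouse genes: the 4 receptors *Robo1*, *Robo2*, *Robo3* and *Robo4* and the 3 ligands *Slit1*, *Slit2* and *Slit3*. They were taken by gene symbol from the 49315 genes counted in the spleen. All 7 were also among the 16836 genes of the normalized spleen table and the 18603 genes of the ovary table. The family was selected because *Robo3* mRNA was lower without *Zfp36l2* in both tissues, so the genotype contrast of *Robo3* is described below without a test.

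Slits are large secreted proteins that bind the extracellular immunoglobulin domains of Robo receptors, with heparan sulphate as a co-factor. The receptors carry no enzyme activity of their own and act on the actin cytoskeleton through adaptor proteins. The system is best known for repelling growing axons from the midline of the nervous system, and it also acts in blood vessels, blood cells and the gonads. ROBO3 is the divergent receptor of commissural axons, which in mammals binds the ligand NELL2 rather than Slits with high affinity, and ROBO4 is the receptor of endothelial cells.

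Poly(A) RNA was sequenced from the spleen and ovary of mice lacking *Zfp36l2*, whose protein binds AU-rich elements in 3′UTRs and promotes the decay of the mRNA. The L2-fKO animals (L2-cKO in the labels) were Zfp36l2-/-;CMV-Cre, with exon 2 removed between loxP sites by a Cre transgene that the CMV promoter drives in all tissues, germ cells included, so that all cell types of either organ were to lack the gene. The controls (WT) were littermates with both wild-type copies of *Zfp36l2* that carried the Tg.CMV-Cre as well. Spleen was represented by 4 WT libraries (2 female, 2 male) and 4 L2-fKO libraries (1 female, 3 male), and ovary by 3 WT and 3 L2-fKO libraries, with 1 L2-fKO female giving both organs. The labels give no age, L2-fKO pups die in early life, and the source label of the spleen libraries reads Spleen Organoid whereas the methods of the study describe the organ. Between 31052510 and 45167464 reads per library were assigned to genes. *Zfp36l2* itself had 4362 to 7327 normalized counts (reads divided by a size factor per library) in WT spleens and 276 to 398 in L2-fKO spleens, and 4745 to 4906 against 758 to 1011 in the ovary. The labelled organs matched their markers: the oocyte list summed to 96545 to 120643 normalized counts in ovaries and 42.6 to 205 in spleens, and the erythroid list to 309756 to 658414 in spleens and 338 to 952 in ovaries. In these whole organs, fewer cells of a type and less RNA per cell cannot be told apart.

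The AU-rich letters that the ZFP36 proteins are known to bind are shown here because they differ among the members. Read along the transcribed strand, the heptamer UAUUUAU was present in 3 of the 7 members, each represented by its longest 3′UTR in GENCODE M21 (GRCm38). *Robo1* held it 1 time in 1733 bases, *Robo2* 2 times in 3987 bases and *Slit2* 1 time in 3492 bases. The 343-base 3′UTR of *Robo3* held neither the heptamer nor the pentamer AUUUA, which lies within it, and neither did those of *Robo4*, *Slit1* and *Slit3*. For comparison, 27.6% of the 21037 mouse genes with an annotated 3′UTR held UAUUUAU and 65.2% held AUUUA, over a median length of 960 bases. 76.1% of those genes had a longer 3′UTR than *Robo3*. The heptamer is in capitals in each site below, written 5′ to 3′ with its flanks.
Robo1 (chr16:73046058-73046087, plus strand): uuuugucauauUAUUUAUuaaaaauguucu
Robo2, proximal (chr16:73895717-73895746, minus strand): aacaauuucuuUAUUUAUguacuauuaaaa
Robo2, distal (chr16:73894923-73894952, minus strand): caagagaucugUAUUUAUauuacagcuuuu
Slit2 (chr5:48305004-48305033, plus strand): ucaaugaggaaUAUUUAUuguauuaaagua
The counts of UAUUUAU were the same when the 3′UTR of median length was read in place of the longest. A match of letters is a description of the annotated sequence and not a site of binding.

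*Slit2* and *Slit3* each carry a copy of the microRNA gene for miR-218 on their own strand, *Mir218-1* on chromosome 5 and *Mir218-2* on chromosome 11. Both copies give the same mature RNA, shown with its seed (bases 2 to 8) in capitals because Robo mRNAs are known targets of it.
mmu-miR-218-5p (chr5:48223966-48223986 and chr11:35616840-35616860, plus strand): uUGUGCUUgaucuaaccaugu
The complement of this seed, AAGCACA, was present in the longest 3′UTR of 4 of the 7 members, namely *Robo1*, *Robo2*, *Robo3* and *Slit2*. It was present in 13.8% of all annotated 3′UTRs. It is in capitals in the receptor sites below.
Robo1 (chr16:73045337-73045366, plus strand): uuugguuuuaaAAGCACAaucacuaaacuu
Robo2, proximal (chr16:73895347-73895376, minus strand): uauuuggugauAAGCACAaaucucuacucc
Robo2, distal (chr16:73893021-73893050, minus strand): acggcagacccAAGCACAgcuucuuucaga
Robo3 (chr9:37416233-37416262, minus strand): gugacucacugAAGCACAcugucuacaaca
*Robo4*, *Slit1* and *Slit3* held no AAGCACA in these 3′UTRs. Poly(A) libraries do not measure the mature microRNA, and the precursors *Mir218-1* and *Mir218-2* drew 0 and 3 reads over the 8 spleen libraries.

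The first question was how much of each member the organs contain without the mutation. Levels were compared as RPKM, reads scaled to the length of the annotated exons in kilobases and to the library's reads on genes, computed here, because the 7 genes differ in length. In WT spleen *Slit3* stood highest at 3.02 ± 1.09 RPKM (SD, n = 4), followed by *Robo4* at 1.76 ± 0.162, *Robo2* at 1.03 ± 0.209 and *Robo1* at 0.513 ± 0.0871. These 4 genes did not overlap their neighbours in the order. *Slit1* at 0.168 ± 0.0844 and *Robo3* at 0.159 ± 0.0336 overlapped each other, and *Slit2* was lowest at 0.0595 ± 0.0158.

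In WT ovary *Slit3* was again highest at 9.27 ± 2.23 RPKM (SD, n = 3), above *Robo1* at 5.91 ± 0.566. *Robo4* at 2.46 ± 0.105, *Robo2* at 2.38 ± 0.227 and *Slit2* at 2.34 ± 0.125 could not be ordered, since their ranges overlapped. *Robo3* at 0.312 ± 0.0372 and *Slit1* at 0.0742 ± 0.0446 came last. *Robo1* thus stood above *Robo4* and *Robo2* in the ovary and below them in the spleen, although the tables of the organs were made separately and no test was run between them. The order depends on the length used, because the annotated exons add up to 16511 bases in *Robo1*, 16983 in *Robo2* and 25433 in *Slit2*, against 7563, 8591 and 9960 in their longest transcripts. With the length of the longest transcript, *Robo2* at 1.66 to 2.61 overlapped both *Robo4* at 1.69 to 2.11 and *Slit3* at 2.42 to 5.32 in WT spleen. *Robo2* could then be ordered against neither of them, while *Slit3* still stood above *Robo4*. *Slit2* at 0.107 to 0.203 overlapped *Slit1* at 0.0826 to 0.279 and *Robo3* at 0.156 to 0.261, so that it no longer stood apart as the lowest. In WT ovary *Robo1* at 11.6 to 14.01 then overlapped *Slit3* at 8.59 to 13.6, and *Slit2* at 5.69 to 6.32 and *Robo2* at 4.39 to 5.21 stood above *Robo4* at 2.504 to 2.71 without overlap.

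**Figure D1:**
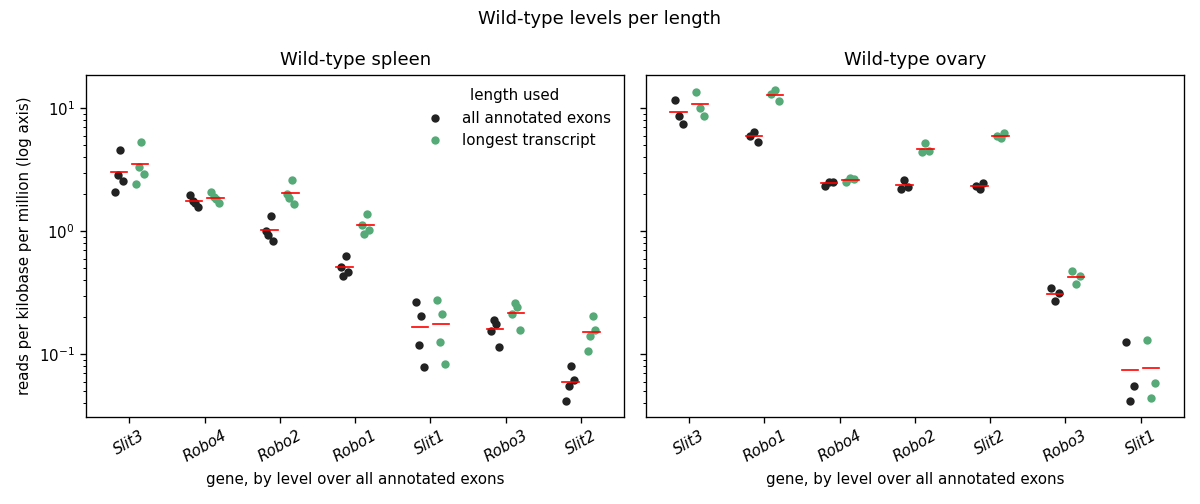
Levels of the 7 genes in WT spleen (left, n = 4) and WT ovary (right, n = 3), in RPKM on a log axis. Points are libraries and red lines means; black uses the length of all annotated exons and green that of the longest transcript. With all annotated exons *Slit3* stands apart at the top in both organs, while with the longest transcript it overlaps *Robo2* in the spleen and *Robo1* in the ovary.

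*Robo3* was the member with the lowest level relative to WT in both organs. It drew 47, 57, 51 and 35 reads in the WT spleens and 6, 2, 2 and 7 reads in the L2-fKO spleens, which is 43.9, 57.5, 49.9 and 35.4 against 6.23, 2.20, 2.20 and 5.86 normalized counts. In the ovary it had 90.0, 69.4 and 78.0 normalized counts in WT and 22.4, 11.3 and 14.8 in L2-fKO. The groups did not overlap in either organ. The mean fell from 46.7 ± 9.35 to 4.12 ± 2.23 (SD, n = 4 each) in the spleen, to 8.84% of WT, and from 79.1 ± 10.4 to 16.2 ± 5.65 (SD, n = 3 each) in the ovary, to 20.4% of WT.

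These are the values by which the family was selected, and *Robo3* passed the spleen filter of at least 10 reads in at least 4 libraries only through its WT libraries. Of all genes, 3.11% were called lower in the L2-fKO spleen and 0.227% in the L2-fKO ovary, a call being an adjusted p under 0.05 with a log2 fold change beyond 1. The log2 fold change of *Robo3* was -3.43 in the spleen fit and -2.27 in the ovary fit. Its share of the summed receptor RPKM was 3.80% to 5.72% in WT spleens against 0.200% to 0.583% in L2-fKO spleens, and 2.31% to 3.19% against 0.421% to 0.732% in ovaries. *Robo3* thus made up a small part of the receptor mRNA of both organs in either genotype. The counts are per gene and do not separate the *Robo3* isoforms.

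Markers of a blood cell type moved with *Robo3* in the spleen. All 5 megakaryocyte markers were called lower in the L2-fKO spleen, where their sum was 1025 to 1301 normalized counts against 20596 to 43592 in WT. In the ovary, 0 of the 3 megakaryocyte markers tested were called by limma and the sum was 291 to 338 in L2-fKO against 224 to 289 in WT. The sum of the pancreatic acinar list was 224 to 568 in L2-fKO against 1161 to 1489 in WT ovaries through 1 gene, *Cpa1*, at a mean of 274 against 1135 (adjusted p = 0.0698, limma), while the means of the other 4 lay between 15.5 and 62.5 in WT and 19.0 and 48.2 in L2-fKO. The granulosa list overlapped at 27890 to 68627 against 62276 to 81411. In the spleen 3 of the WT libraries held 3297 to 12590 summed acinar counts, and the fourth, with 35.2, had 49.9 normalized counts of *Robo3*, within the range of the others. The L2-fKO spleens held 22.6 to 71.4 summed acinar counts, and all 3 acinar genes tested there were called lower by edgeR. The sums of the mesothelial list and of the spleen lymphoid and red pulp list overlapped between the genotypes in both organs. The part of megakaryocytes and of the other cell types in the level of *Robo3* was not tested.

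**Figure D2:**
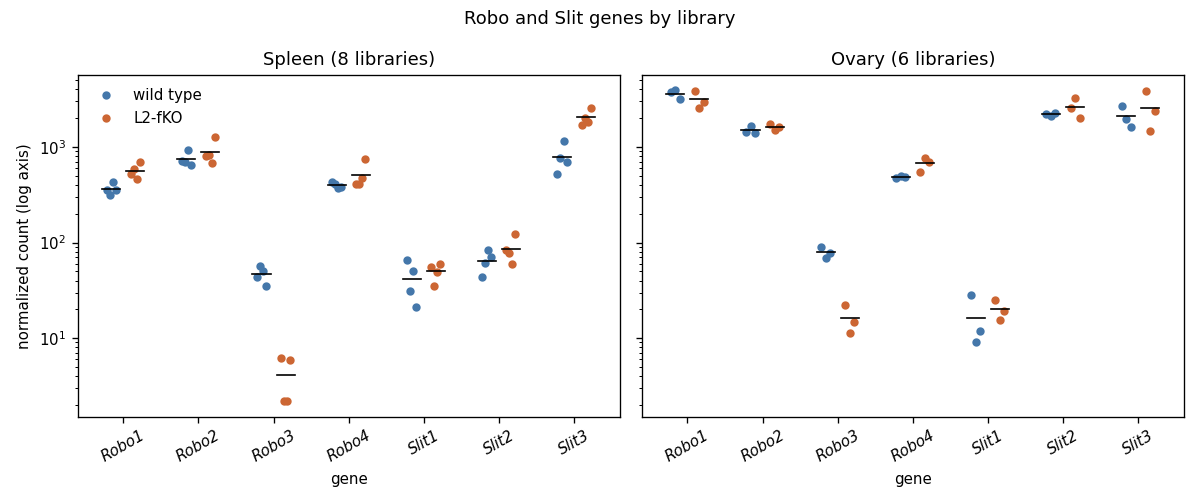
Normalized counts of the 7 genes (log axis) in the 8 spleen and 6 ovary libraries, with WT in blue, L2-fKO in orange and black lines at the group means. *Robo3* separates the genotypes in both organs, *Robo1* and *Slit3* separate them in the spleen, and *Robo4* in the ovary.

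*Robo4*, the endothelial receptor, is the closest neighbour of *Robo3* in the genome. *Robo4* lies on the plus strand at chr9:37401897-37415115 and *Robo3* on the minus strand at chr9:37415669-37433246, so their 3′ ends face each other across 553 bases. In the spleen *Robo4* had 432, 414, 369 and 380 normalized counts in WT and 407, 408, 474 and 756 in L2-fKO, so that the genotypes overlapped. The fit gave a log2 fold change of 0.36 (SE 0.209, 95% interval -0.11 to 0.83, adjusted p = 0.288, edgeR's quasi-likelihood test). The 4th L2-fKO spleen was high for *Robo4* and also had the highest endothelial marker sum, 75480 against 52974 to 54599 in the other L2-fKO spleens. This was not particular to *Robo4*, since that library was also the highest L2-fKO spleen for *Robo1*, *Robo2*, *Slit1*, *Slit2* and *Slit3*. Among the L2-fKO spleens it also had the highest fibroblast and reticular stroma sum, 84234, and the lowest erythroid sum, 309756. Without it the log2 fold change of *Robo4* in the spleen was 0.10.

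In the ovary *Robo4* had 468, 496 and 482 normalized counts in WT and 552, 772 and 695 in L2-fKO. The groups did not overlap, as held for 1 of the 6 members other than *Robo3* and for 25.2% of all genes in the ovary. The log2 fold change of 0.47 (SE 0.136, 95% interval 0.15 to 0.78) had an adjusted p of 0.151 with limma and did not pass. The adjusted p was 0.0431 with DESeq2 on the recovered reads. The summed endothelial markers of the ovary did not overlap either, at 23866 to 25375 in WT and 28948 to 33230 in L2-fKO with 0 of 15 genes called. In the spleen that list summed to 37030 to 51808 in WT and 52974 to 75480 in L2-fKO with 1 of 15 called (*Clec14a*, higher). Their part in the level of *Robo4* was not tested.

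The other genes around the pair were read as well. They were the 3 nearest protein-coding genes on each side, *Slc37a2*, *Ccdc15* and *Hepacam* on the *Robo4* side and *Msantd2*, *Esam* and *Vsig2* on the *Robo3* side. In the spleen 5 were tested with edgeR, with 0 called and 0 at an unadjusted p under 0.05. In the ovary 6 were tested with limma, with 0 called and 1 at an unadjusted p under 0.05, *Esam*. Of all genes, 6.01% were called in the spleen and 0.957% in the ovary, so 0 of so few is near that share. *Hepacam*, 15322 bases from *Robo4*, had too few reads to be tested in the spleen and 41.0 ± 3.92 against 40.9 ± 6.19 normalized counts (SD, n = 3 each) in WT and L2-fKO ovaries. *Msantd2*, 56073 bases from *Robo3*, had a log2 fold change of -0.08 (95% interval -0.37 to 0.21) in the spleen and -0.03 (95% interval -0.33 to 0.26) in the ovary. *Esam*, an adhesion molecule of endothelial cells that is also in the endothelial list, had 0.08 in the spleen and 0.26 in the ovary. The log2 fold change furthest from 0 was that of *Vsig2* in the spleen at -0.62 (SE 0.404, adjusted p = 0.341).

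**Figure D3:**
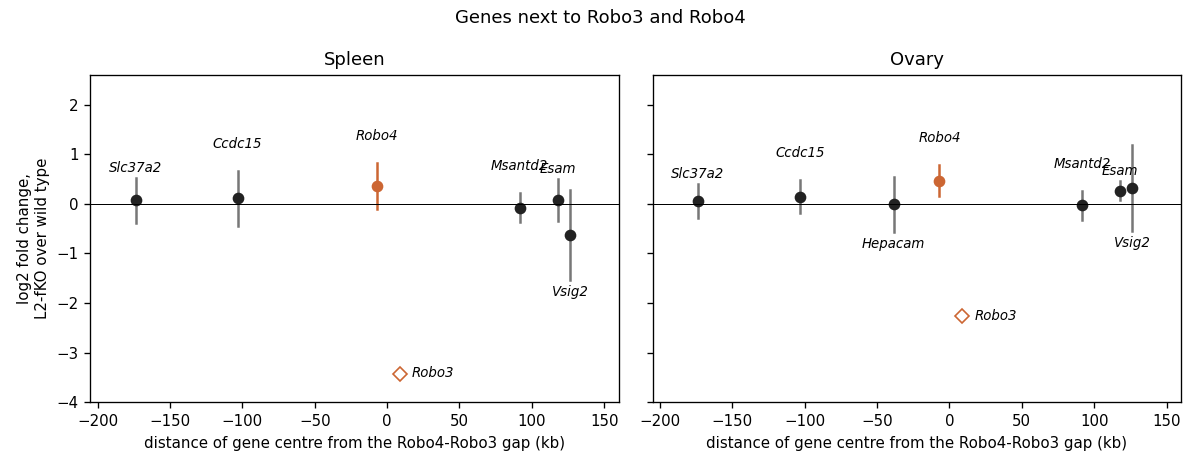
Log2 fold change (L2-fKO over WT) of *Robo3* (open diamond), *Robo4* (orange) and the neighbouring protein-coding genes (black) against the distance of each gene's centre from the gap between *Robo4* and *Robo3*, with 95% intervals except for *Robo3*. In the spleen *Robo3* is at -3.43 while the neighbours lie between -0.62 and 0.11, and *Hepacam* is not drawn there because it was not tested.

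*Robo1* and *Robo2*, the 2 classical receptors of Slits in axon guidance, lie on chromosome 16 with 845743 bases between them. *Robo1* had 353, 314, 429 and 351 normalized counts in WT spleens and 516, 586, 466 and 692 in L2-fKO spleens, with every L2-fKO library above every WT library. It and *Slit3* were the 2 of the 6 members other than *Robo3* whose groups did not overlap in the spleen, where this held for 20.3% of all genes. The log2 fold change was 0.64 (SE 0.167, 95% interval 0.27 to 1.02, adjusted p = 0.0323, edgeR's quasi-likelihood test), past the limit on p and below that on the fold. Of the 6 members 2 passed on the adjusted p alone, against 13.4% of all genes. The adjusted p of *Robo1* rose above the limit, up to 0.0947, when any of WT replicates 1, 2 and 4 or L2-fKO replicates 1 and 2 was left out, and to 0.0594 with sex as a covariate, and was 0.00255 with DESeq2.

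In the ovary *Robo1* went the other way by its mean: 3748, 3920 and 3171 normalized counts in WT and 3898, 2591 and 2943 in L2-fKO. The groups overlapped, and the log2 fold change of -0.22 (SE 0.155, 95% interval -0.58 to 0.14, adjusted p = 0.526, limma) did not pass. *Robo2* ranged from 644 to 921 normalized counts in WT spleens and 672 to 1259 in L2-fKO spleens, and from 1399 to 1657 and 1489 to 1738 in ovaries. Its log2 fold changes were 0.25 (95% interval -0.21 to 0.72, adjusted p = 0.453, edgeR) and 0.11 (95% interval -0.12 to 0.34, adjusted p = 0.610, limma), with overlapping groups in both organs.

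Among the ligands, *Slit3* rose in the L2-fKO spleen. It had 523, 764, 1142 and 698 normalized counts in WT and 1719, 2018, 1832 and 2591 in L2-fKO, so that the lowest L2-fKO library stood above the highest WT library. The mean went from 782 ± 261 to 2040 ± 388 (SD, n = 4 each), with a log2 fold change of 1.38 (SE 0.235, 95% interval 0.86 to 1.91, adjusted p = 0.00507, edgeR's quasi-likelihood test). *Slit3* was the 1 member of the 6 other than *Robo3* called in the spleen, where 6.01% of all genes were called and 2.90% in the upward direction. It was called in every alternative fit, with log2 fold changes of 1.23 to 1.62.

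Stromal markers moved with *Slit3* in the spleen. The list for fibroblasts and reticular stroma summed to 52985 to 61594 normalized counts in WT and 65567 to 84234 in L2-fKO, and 3 of its 10 genes were called higher (*Lum*, *Pdgfra* and *Pdgfrb*). The smooth muscle and pericyte list summed to 10701 to 16956 and 16392 to 17909, with 1 of 7 called (*Rgs5*), and the Schwann cell list to 664 to 839 and 2276 to 2831, with 1 of the 4 tested called (*Ngfr*). None of these lists held a gene at 0 in every library. Their part in the level of *Slit3* was not tested.

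In the ovary *Slit3* had 2690, 1945 and 1627 normalized counts in WT and 3828, 1454 and 2392 in L2-fKO. The L2-fKO libraries held both the highest and the lowest value, and the log2 fold change of 0.22 (SE 0.337, 95% interval -0.57 to 1.00, adjusted p = 0.787, limma) did not pass. The ovary with the most *Slit3*, the 1st L2-fKO, also had the highest smooth muscle and pericyte sum, 51989, and the ovary with the least, the 2nd L2-fKO, the lowest, 18933. The sums of the WT ovaries were 43058, 23320 and 39491 and that of the 3rd L2-fKO ovary 27332, so the orders matched only in part. The part of these cells in the level of *Slit3* was not tested.

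*Slit2* ranged from 43.9 to 83.2 normalized counts in WT spleens and 59.3 to 123 in L2-fKO spleens, and had 2227, 2096 and 2280 in WT ovaries against 2578, 3236 and 2033 in L2-fKO ovaries. The groups overlapped in both organs, with log2 fold changes of 0.41 (SE 0.284, adjusted p = 0.368, edgeR) and 0.22 (SE 0.155, adjusted p = 0.513, limma). *Slit1* was scarce, at 21 to 71 reads in any spleen and 11 to 28 in any ovary. Its intervals were wide, -0.53 to 1.03 on the log2 scale in the spleen and -0.66 to 1.45 in the ovary, and a log2 fold change of 1 lay within both.

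In the ovary 0 of the 6 members other than *Robo3* were called by limma, by edgeR or by DESeq2, with 1 at an unadjusted p under 0.05 in each, where 0.957% of all genes were called by limma, 0.730% upward. By the adjusted p alone 0 passed with limma, against 1.58% of all genes, and 1 with DESeq2, *Robo4*. The median log2 fold change of those 6 members was 0.39 in the spleen and 0.22 in the ovary, beside -0.02 and -0.0042 over all genes tested. All 6 were above 0 in the spleen and 5 in the ovary, against 47.8% and 49.3% of all genes. The members were measured in the same libraries, so these signs are not independent of each other. The 4th L2-fKO spleen was the highest L2-fKO spleen for each of the 6. Without it the spleen log2 fold changes were 1.24 for *Slit3*, 0.53 for *Robo1* and 0.03 to 0.18 for the others.

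Summed over the family, the receptors held 3.003 to 3.83 RPKM in WT spleens and 3.25 to 6.86 in L2-fKO spleens, and the Slits 2.39 to 4.87 and 6.45 to 11.7. The ratio of summed Slit to summed Robo RPKM was 0.655 to 1.27 in WT spleens and 1.70 to 2.12 in L2-fKO spleens, without overlap. *Slit3* made up 87.1% to 94.8% of the Slit sum in WT and 95.7% to 97.4% in L2-fKO spleens, so this ratio is largely that of *Slit3* to the receptors. In the ovary the ratio was 0.922 to 1.30 and 0.943 to 1.65, and the groups overlapped. With these lengths of all annotated exons *Robo4* made up 44.3% to 53.8% of the receptor sum in WT spleens, and *Robo1* 51.0% to 55.04% in WT ovaries. With the longest transcripts *Robo4* and *Robo2* could not be ordered in the spleen, as given above.

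The genotype effects of the 2 organs were then set against each other in 1 limma model. The log2 fold change of *Robo1* was higher in the spleen than in the ovary by 0.85 (SE 0.232, 95% interval 0.36 to 1.35, adjusted p = 0.0427), 1 of the 6 members tested to pass on the adjusted p alone, against 6.35% of all genes. By the call rule, which also asks for a difference beyond 1, 0 of the 6 were called, with 2 at an unadjusted p under 0.05, against 3.67% of all genes; edgeR also called 0. The adjusted p of *Robo1* rose above the limit with sex as a covariate and on leaving out any 1 of 10 libraries, up to 0.115. The difference for *Slit3* was 1.21 (SE 0.423, 95% interval 0.30 to 2.11, adjusted p = 0.109) and did not pass, but it did without the 3rd WT spleen (1.41, adjusted p = 0.0413) or without the 1st L2-fKO ovary (1.55, adjusted p = 0.0348). For *Robo2*, *Robo4*, *Slit1* and *Slit2* the difference lay between -0.15 and 0.17, with adjusted p-values of 0.794 or more.

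**Figure D4:**
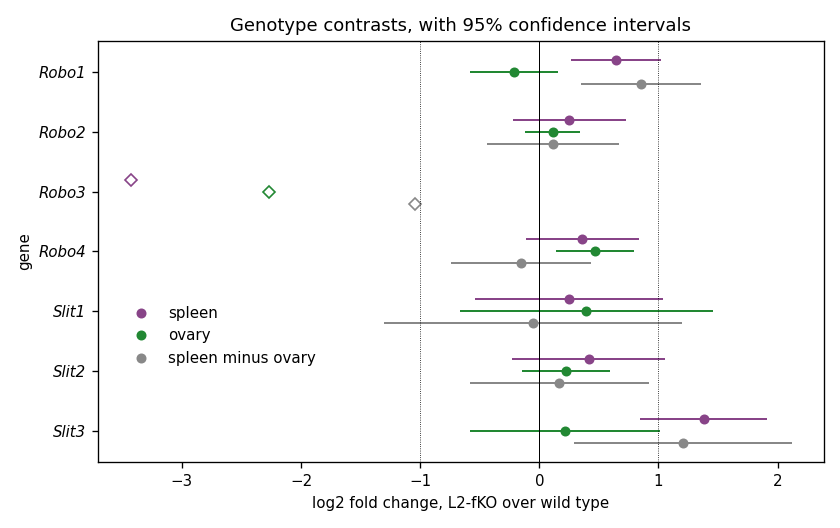
Log2 fold change (L2-fKO over WT) of each member in the spleen (purple) and ovary (green), and the spleen change minus the ovary change (grey), with 95% confidence intervals; *Robo3* is drawn without an interval because the family was selected on it. Dotted lines mark the fold limit of the calls; in the spleen *Slit3* lies at 1.38 and the other members with an interval between 0.25 and 0.64.

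Genes tied to Slits and Robo receptors were read from a list of 52 in 7 roles. The roles ran from other Robo ligands and their partners through signalling genes to transcription factors known for *Robo3* or Slit expression. In the spleen 47 could be tested, of which 1 was called higher and 1 lower, beside the 6.01% called of all genes, with a median log2 fold change of 0.10. *Unc5b*, a netrin receptor that also binds ROBO4 in endothelial cells, had 482 to 584 normalized counts in WT and 946 to 1641 in L2-fKO spleens (log2 fold change 1.11, SE 0.190, adjusted p = 0.00517, edgeR). Without the 4th L2-fKO spleen its log2 fold change was 0.89, below the fold limit. *Cap2*, an actin regulator related to the CAP protein of the Abl pathway, fell from 118 to 168 normalized counts in WT to 27.0 to 41.7 in L2-fKO (log2 fold change -2.01, SE 0.211, adjusted p = 0.000411, edgeR). The megakaryocyte markers were lower in the same spleens, as given above, and their part in the level of *Cap2* was not tested. On the adjusted p alone 7 of the 47 were higher and 1 lower, beside 13.4% of all genes in both directions. Those below the fold limit, named after their values were seen, were *Unc5a*, the heparan sulphate carriers *Sdc1* and *Sdc3*, *Plxna1*, the GTPase activator *Srgap1* and the exchange factor *Arhgef7*, at log2 fold changes of 0.66 to 0.96. Of the 8 GTPases and kinases and the 5 trafficking genes 0 passed by edgeR, with 0 and 1 at an unadjusted p under 0.05.

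In the ovary all 52 could be tested and 1 was called, beside 0.957% of all genes. *Pax6*, a transcription factor of neurons, eye and pancreatic islets, had 67.0 to 87.6 normalized counts in WT ovaries and 5.69 to 17.9 in L2-fKO ovaries (log2 fold change -2.68, SE 0.405, adjusted p = 0.0263, limma). The call was lost on leaving out any of the 3 WT ovaries, with adjusted p-values of 0.116 to 0.133. The acinar marker *Cpa1*, the 1 gene behind the lower acinar sum given above, was lower in the mean of the same L2-fKO ovaries. It did not pass (adjusted p = 0.0698, limma), and its part in the level of *Pax6* was not tested. In the spleen *Pax6* was below the filter, at 2.94 to 16.8 in WT and 0.838 to 7.69 in L2-fKO. The median of the list in the ovary was 0.03. That of its 5 transcription factors known for *Robo3* or Slit expression, the role that holds *Pax6*, was -1.01, with 1 called. *Ndfip2*, an adaptor of the ubiquitin ligases that control Robo turnover, was named after its values were seen as the 1 gene higher on the adjusted p alone (log2 fold change 0.53, adjusted p = 0.0359, limma).

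**Figure D5:**
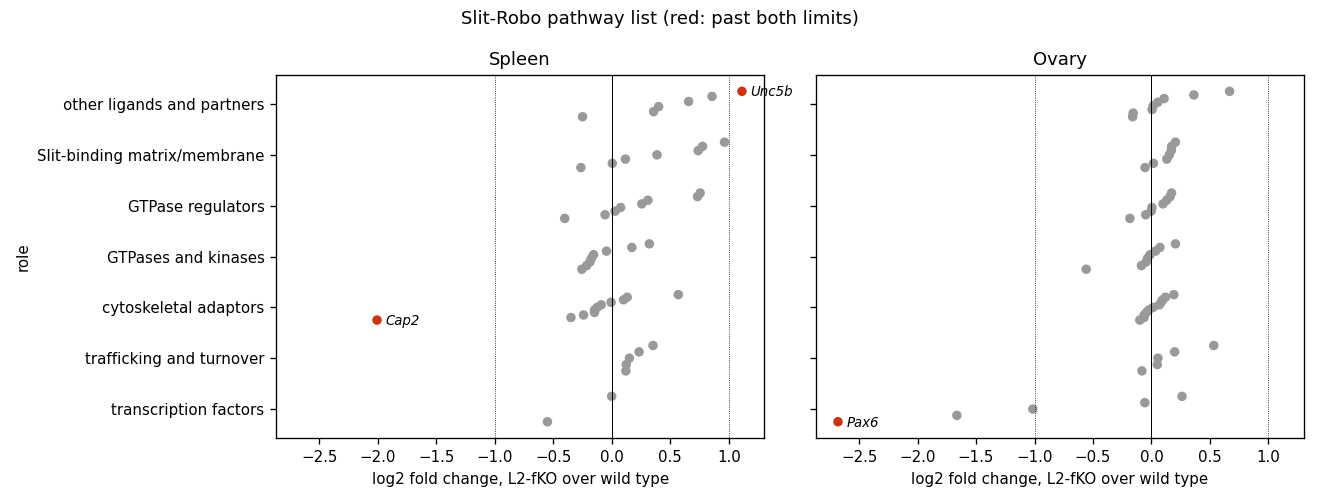
Log2 fold change (L2-fKO over WT) of the genes of the Slit-Robo list by role, in the spleen (left, 47 tested) and ovary (right, 52 tested), with 1 point per gene; vertical position within a role only spreads the points. Red points passed both limits: *Unc5b* and *Cap2* in the spleen and *Pax6* in the ovary.

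The genes most like *Robo3* were found from Pearson's r over the 14 libraries, on log2(normalized count + 1) with the mean of each organ removed, among 15305 other genes that passed the filters in both. Since *Robo3* divides the genotypes, so must any gene like it, and the libraries share that division. The highest r were those of *Bckdhb* (0.966), a subunit of branched-chain keto acid dehydrogenase, *Rgs18* (0.956), a regulator of G protein signalling in platelets, *Zfp36l2* itself (0.952), *Macrod2* (0.940) and *Tmem216* (0.938), a ciliary protein. The lowest were those of *Insig1* (-0.955), which restrains sterol synthesis, *4632432E15Rik* (-0.948), *Chuk* (-0.948), a kinase of the NF-κB pathway, *Dync1li1* (-0.942) and *Mia2* (-0.935). *Rgs18* went from a mean of 1934 to 232 normalized counts in the spleen and from 16.04 to 4.98 in the ovary. The other 6 members had r of -0.650 (*Slit3*) to -0.212 (*Slit1*), values that restate their own genotype contrasts.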

How the data were processed

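Spleen and ovary libraries of poly(A) RNA were made with an NEBNext Ultra II kit. For the spleen the authors deposited raw read counts per gene and the same counts divided by 1 size factor per library. Per the submitters' processing notes and the methods of the study, reads were trimmed with Trimmomatic 0.36, aligned to GRCm38 with STAR 2.5.2b and counted in exons with featureCounts of Subread 1.5.2 (unique, strand-specific). For the ovary the authors deposited a normalized signal only (gene counts over a size factor), from which whole reads were recovered for 100% of values within 0.001 read. Columns with the authors' own comparisons (fold changes and p-values) and 8 per-sample columns that repeat the spleen values were not used.

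The spleen was tested with edgeR 4.0.16 (quasi-likelihood, TMM; at least 10 reads in at least 4 libraries; 16911 genes) and the ovary with limma 3.58.1 (trend) on log2(value + 1), which understates the change of low genes (values of at least 10 in at least 3 libraries; 18504 genes). The difference between organs was a contrast of the 4 groups in limma (15300 genes). Adjusted p-values are Benjamini-Hochberg over all genes tested, and DESeq2 1.42.0 was an alternative. The code was tested on simulated data. GENCODE M21 gave coordinates and 3′UTRs, and RefSeq (GRCm38.p6) the microRNA. RPKM used annotated exon lengths. Exon counts cannot separate isoforms or genes that overlap on 1 strand: *Robo2* has 5 such annotated genes, *Slit2* 6 and *Slit3* 3, and the other members 0.

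The members and all gene lists were chosen with earlier results of these data known. Genes named are the members, the deleted gene, called genes of the pathway list, 3 neighbours on each side of *Robo3* and *Robo4*, and the 5 genes at each end of the correlation with *Robo3*. Marker genes called, uncalled pathway genes that passed on the adjusted p alone, and *Cpa1* were named after their values were seen. The result of 1 marker list is not reported here. The labels name separate animals as replicates; 2 WT spleens carry the number 3, and 1 was numbered 4 here. Alternatives were other size factors, filters, pseudocounts, tests, sex as a covariate, males alone, a replicate block and leaving out each library.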

Additional observations from a re-analysis of the deposited data

Results flagged for a closer look

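In the test of the difference between organs, the log2 fold change of *Robo1* was higher in the spleen than in the ovary by 0.85 (adjusted p = 0.0427, limma), with 4 of 4 L2-fKO spleens above every WT spleen and overlapping groups in the ovary. The difference was below the fold limit of a call, and its adjusted p passed above 0.05 with sex as a covariate (0.0510) and in 10 of the 14 fits that left out 1 library (up to 0.115). Of the 14 groups of 4 spleen libraries formed by the 7 members, 0 held a library whose gap to its nearest neighbour passed Dixon's critical value, where chance would flag about 1 in 20 groups. Groups of 3 ovaries were not examined in this way.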

How the results depend on the processing

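Of the members other than *Robo3*, 1 was called in the spleen in each alternative fit, and in the ovary 0; on the adjusted p alone it was 2 in the spleen. *Robo3* kept its direction, with log2 fold changes of -3.66 to -3.21 in the spleen and -2.51 to -2.02 in the ovary. The adjusted p alone gave 1166 genes higher and 1101 lower in the spleen (8 of the pathway list) and 227 and 65 in the ovary (2 of the list). Males alone gave 5 genes of the pathway list in the spleen. DESeq2 on recovered reads gave 286 genes higher and 121 lower in the ovary (2 of the list), and edgeR on these reads 136 and 46. With at least 10 in all ovaries, 0 of the list were called. That filter removed *Pax6*, with a lowest value of 5.69 in L2-fKO ovaries, before testing, so it cannot speak to the *Pax6* call. The low values of *Robo3* in the L2-fKO spleen and of *Slit1* limit their precision.

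Leaving out 1 library gave 1 to 4 called pathway genes in the spleen and 0 to 1 in the ovary. The ovary counts lay between 28 and 126 higher and 4 and 72 lower. For the difference between organs, where leaving out libraries was chosen after seeing the data, 142 to 339 genes were called higher and 219 to 531 lower, and 0 to 2 of the members. Fewer libraries entered these fits, and their cause was otherwise not tested.

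The replicate numbers were not taken as pairs, since the labels tie them to no pairing (the study describes age-matched pairs of spleens) and not every pair of same-numbered libraries correlated above 0.1: -0.14, 0.0984, 0.18 and -0.306 in the spleen and 0.382, 0.211 and 0.0723 in the ovary, where all 3 were above 0. With the replicate block, 411 genes were higher and 389 lower in the spleen, and 187 and 81 in the ovary, and the adjusted p of *Robo1* in the spleen was 0.0973.

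Changes of sign were seen in log2 fold changes near 0. In the spleen *Slc37a2* was at -0.012 with sex as a covariate, and with males alone *Msantd2* was at 0.075 and *Esam* at -0.071. The difference between organs of *Slit1* was 0.0026 with a pseudocount of 5 and 0.11 with sex as a covariate. On leaving out 1 library, the ranges that crossed 0 were -0.078 to 0.19 for *Slc37a2* and -0.083 to 0.20 for *Esam* in the spleen; -0.13 to 0.57 for *Slit3* (lowest without the 1st L2-fKO ovary), -0.28 to 0.083 for *Cap2*, -0.063 to 0.14 for *Slc37a2*, -0.092 to 0.12 for *Hepacam* and -0.15 to 0.029 for *Msantd2* in the ovary; and -0.067 to 0.23 for *Robo2*, -0.50 to 0.26 for *Slit1* and -0.017 to 0.34 for *Slit2* in the difference between organs.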
